A study of Homo sapiens with 21 samples.

Results

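Target genes of the transcription factor p53, 9 in number, were followed across a coumarin dose series in human cells. The 9 genes were CDKN1A, MDM2, FAS, TNFRSF10B, ZMAT3, SESN1, BTG2, CCNG1 and RRM2B, taken as the rows of the count table that carry these symbols, 9 of 58735 genes in all. Every symbol matched 1 row, and all 9 genes were among the 16699 genes with enough counts to be tested. The cells carry the label HepG2, a line derived from a liver tumour, and were kept for 24 h in DMEM without serum containing 0, 0.001, 0.01, 0.1, 1, 10 or 100 µM coumarin, a plant benzopyrone. Each of the 7 doses had 3 libraries described as biological replicates, 21 libraries of poly(A)-selected RNA in all. The serum-free medium was common to all groups, 0 µM included, and the series holds 1 line and 1 time point.

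p53 is a sequence-specific transcription factor whose protein is kept low by the ubiquitin ligase MDM2 and is stabilised when DNA damage, ribosomal stress or oncogene signals block that ligase. Much of its control is therefore exerted on the protein, and its activity is commonly read from the transcripts of its targets. Its targets include brakes on the cell cycle, death receptors and other apoptosis genes, regulators of metabolism and DNA repair, and MDM2, which closes a negative feedback loop. In HepG2 the responses of these targets are often used to sense genotoxic stress.

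Each library held 26984563 to 43375429 counts in genes, so that 3 counts, the floor used here, came to 0.0692 to 0.111 CPM (counts per 1000000). Defining hepatocyte genes were close to absent: of 12 such markers 5 were at 0 in all 21 libraries, and their summed level was 0 to 0.105 CPM at 100 µM and 0.0334 to 0.131 CPM at 0 µM. Epithelial markers summed to 3441 to 3530 CPM at 100 µM and 4308 to 4792 CPM at 0 µM. Mesenchymal markers summed to 1380 to 1427 CPM at 100 µM and 1586 to 1672 CPM at 0 µM, and endothelial and leukocyte markers to at most 1.52 and 0.394 CPM in any library. The label was therefore not borne out by the liver genes. Replicates 2 and 3 at 0 µM stood apart from the other libraries in the share of the reads behind the authors' FPKM values (fragments per kilobase of gene, relative to depth) that the gene counts do not hold, 8.03% and 8.17% against 1.04% to 5.43% elsewhere, and calls against 0 µM were recomputed with replicate 1 as the sole control.

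The stretches of DNA before the annotated transcription starts are shown for 4 of the genes, because a match to the p53 binding motif lies there in 3 of them and none was found in CDKN1A. RefSeq (GRCh38.p14) windows from 250 bases before to 50 bases after a start were at hand for 7 of the 9 genes, in 16 windows. They were scanned on both strands for pairs of p53 decamers with at most 3 departures from the decamer consensus in all and 0 to 13 bases between them. Such a pair stood in 5 windows of 4 genes (MDM2, FAS, SESN1 and ZMAT3), and in 12.8% of all 35116 windows of this length. Pairs with no base between the decamers, present in 1.12% of all windows, are capitalised in the 250 bases before an annotated start of MDM2 (chr12:68808767-68809016, plus strand), FAS (chr10:88991181-88991430, plus strand) and SESN1 (chr6:109008989-109009238, minus strand). These starts lie inside the genes, whose spans begin at 68808176 (MDM2), 88990582 (FAS) and, on the minus strand, 109094819 (SESN1). Each of these 3 windows was chosen for its pair, and the windows at the outermost starts of the 3 genes held none. CDKN1A (chr6:36678464-36678713, plus strand), whose span begins at 36676460, is given beside these 3.
CDKN1A: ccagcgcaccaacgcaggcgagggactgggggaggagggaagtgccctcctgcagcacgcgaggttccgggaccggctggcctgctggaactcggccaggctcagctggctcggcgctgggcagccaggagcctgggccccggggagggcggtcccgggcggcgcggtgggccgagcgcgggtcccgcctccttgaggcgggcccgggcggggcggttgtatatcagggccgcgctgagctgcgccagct
MDM2: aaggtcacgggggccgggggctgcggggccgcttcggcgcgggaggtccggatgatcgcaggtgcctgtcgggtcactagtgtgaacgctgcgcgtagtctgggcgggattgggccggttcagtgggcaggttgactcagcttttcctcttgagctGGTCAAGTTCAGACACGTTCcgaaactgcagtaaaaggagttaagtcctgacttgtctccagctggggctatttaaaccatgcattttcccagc
FAS: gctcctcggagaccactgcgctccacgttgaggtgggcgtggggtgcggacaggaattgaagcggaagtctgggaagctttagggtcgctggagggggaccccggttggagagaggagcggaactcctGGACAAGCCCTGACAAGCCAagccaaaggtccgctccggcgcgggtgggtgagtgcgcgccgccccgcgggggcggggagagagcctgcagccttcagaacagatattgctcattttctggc
SESN1: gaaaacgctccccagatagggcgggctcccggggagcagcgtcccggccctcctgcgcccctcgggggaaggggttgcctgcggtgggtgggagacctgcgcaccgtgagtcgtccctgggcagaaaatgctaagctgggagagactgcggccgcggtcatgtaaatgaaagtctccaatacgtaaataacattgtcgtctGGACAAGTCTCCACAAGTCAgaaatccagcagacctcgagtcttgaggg
The MDM2 pair began 94 bases before that start and departed from the consensus at 2 letters. The FAS pair, 122 bases before its start, also departed at 2, and the SESN1 pair, 49 bases before, at 3. In CDKN1A the well-known p53 sites lie farther upstream than this window reaches. The letters TGATGNAA, an element bound by ATF4, were found on neither strand of any of the 16 windows and in 3.62% of all windows.

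In untreated cells the 9 genes were expressed at levels that spanned an order of magnitude. On the authors' FPKM scale, which allows for gene length, CCNG1 was highest at 28.1 ± 1.34 (SD, n = 3 here and for each gene that follows). TNFRSF10B followed at 22.9 ± 0.607, CDKN1A at 18.7 ± 0.429 and ZMAT3 at 14.4 ± 0.293 FPKM. Below a wide gap came RRM2B at 4.02 ± 0.102 and MDM2 at 3.98 ± 0.170, whose values overlapped. SESN1 had 3.58 ± 0.234, BTG2 2.90 ± 0.102 and FAS, the lowest, 2.52 ± 0.0455 FPKM. Apart from RRM2B and MDM2, no 2 neighbours in this order overlapped. Within a dose, CPM of the 9 genes varied by a pooled 2.76% (TNFRSF10B) to 7.19% (BTG2).

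At 100 µM coumarin, 4 of the 9 genes changed relative to 0 µM: CDKN1A and BTG2 rose, MDM2 and ZMAT3 fell, and the changes other than that of CDKN1A were of 1.23-fold or less. The test was edgeR's quasi-likelihood F test over all 21 libraries, with Benjamini-Hochberg adjustment over 16699 genes and a threshold of 0.05. By the same test 27.3% of all genes changed, 14.4% up and 12.9% down. The median log2 change of the 9 genes was -0.00 and that of all tested genes -0.01. In bulk RNA a change of transcripts per cell and a change in the share of cells that hold them cannot be told apart.

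**Figure D1:**
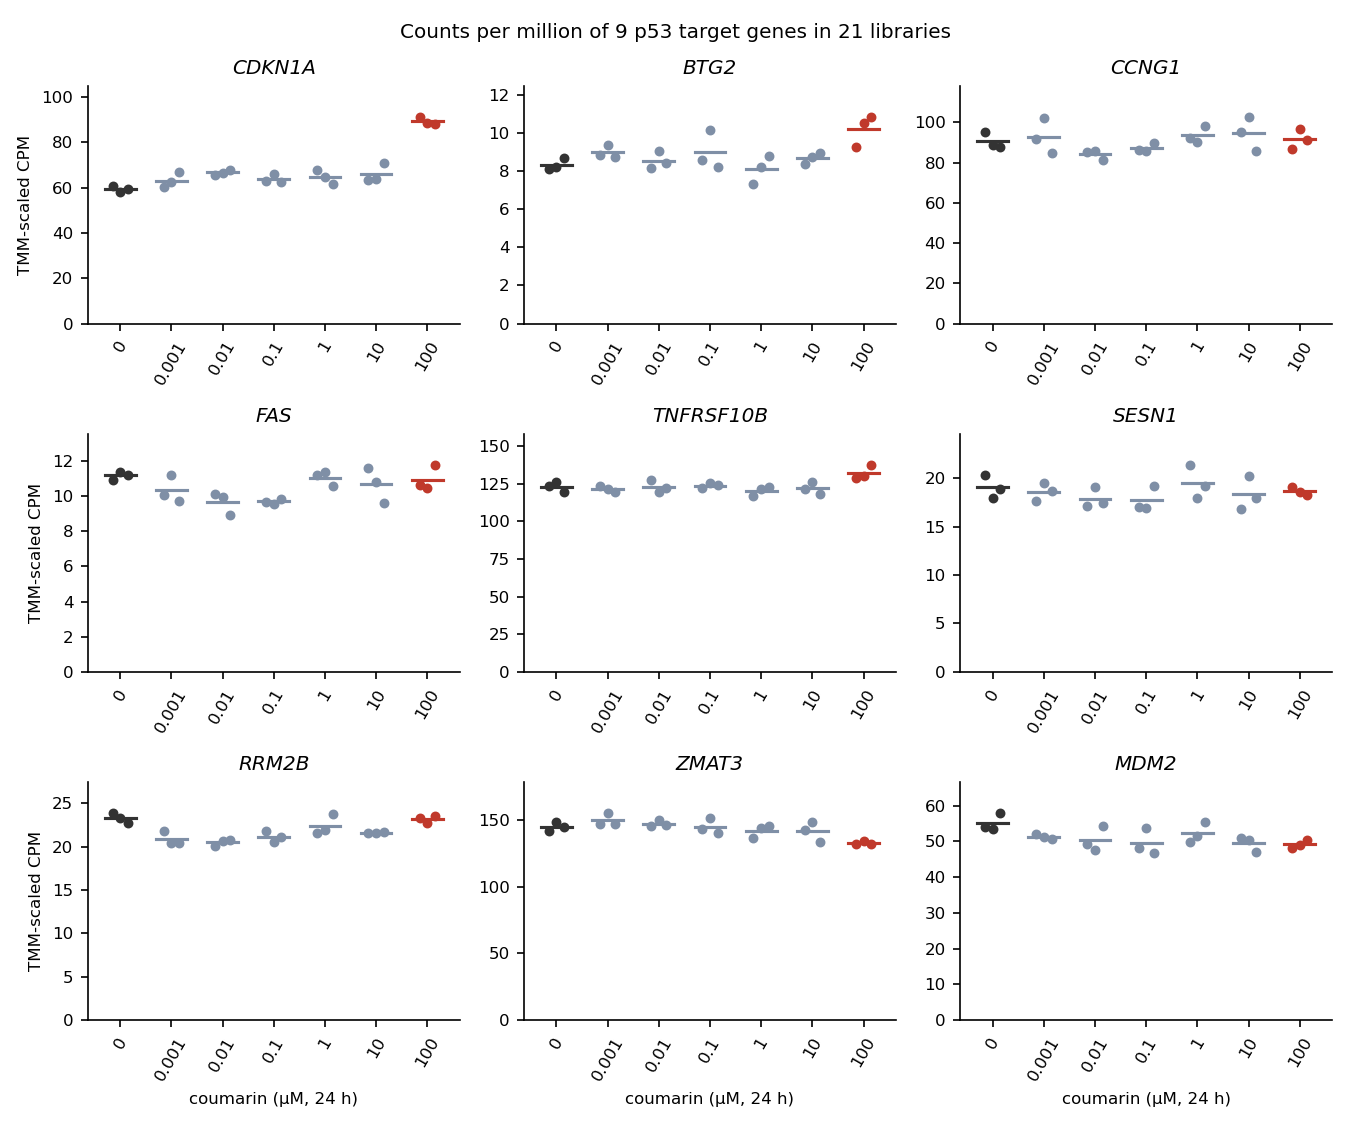
TMM-scaled CPM (vertical axis, from 0) of the 9 p53 target genes at each coumarin dose in µM (horizontal axis). Points are libraries and bars the means of 3. CDKN1A at 100 µM, 88.1 to 91.2 CPM, lies above the other 18 libraries, whose highest value is 70.8 CPM.

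Of the brakes on cell division, CDKN1A moved most. CDKN1A (ENSG00000124762, chromosome 6, 36676460 to 36687339, plus strand, GRCh38) encodes p21, which binds and inhibits cyclin-dependent kinases. It had 91.2, 88.6 and 88.1 CPM at 100 µM, against 60.6, 58.2 and 59.6 CPM at 0 µM. The groups did not overlap, and all 3 libraries at 100 µM lay above the other 18, which ran from 58.2 to 70.8 CPM. A position above all 18 was shared with 7.66% of the genes tested. Its log2 change was 0.59 ± 0.05 (SE; 95% interval 0.48 to 0.69), or 1.5-fold (edgeR adjusted p = 8.5e-13). By p it ranked 126 of the 16699 genes. The call was kept in all 17 other settings of scaling, filtering, model, baseline and left-out libraries, with log2 changes of 0.47 to 0.60.

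BTG2 (ENSG00000159388, chromosome 1, 203305491 to 203309602), an antiproliferative gene whose product recruits deadenylases to transcripts, had 9.27, 10.5 and 10.8 CPM at 100 µM, against 8.11, 8.22 and 8.68 CPM at 0 µM. The 3 treated libraries lay above the 3 untreated ones, as did those of 20.9% of all genes, but not above all others, since 1 library at 0.1 µM reached 10.1 CPM. The log2 change was 0.30 ± 0.09 (SE), or 1.23-fold (edgeR adjusted p = 0.0114). This call was lost without 100 µM replicate 3 (0.24, edgeR adjusted p = 0.0903) and against control replicate 1 alone (0.33, edgeR adjusted p = 0.0958). CCNG1 encodes cyclin G1, a partner of protein phosphatase 2A that acts on MDM2. It had 86.8, 96.9 and 91.3 CPM at 100 µM, against 95.4, 88.8 and 87.8 CPM at 0 µM, and the groups overlapped. Its log2 change was 0.02, with a 95% interval of -0.11 to 0.14 (edgeR adjusted p = 0.87).

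Of the 2 death receptors, neither passed the test at 100 µM against 0 µM. TNFRSF10B (ENSG00000120889) encodes DR5, a receptor for the death ligand TRAIL. It had 129, 129.9 and 137 CPM at 100 µM, against 124, 126 and 119.6 CPM at 0 µM. All 3 libraries at 100 µM exceeded the other 18, whose highest value was 127 CPM, as in 7.66% of the genes tested. The log2 change was 0.10 ± 0.04 (SE; edgeR adjusted p = 0.0533), which missed the threshold. It passed in 4 of the 17 other settings, among them DESeq2 (DESeq2 adjusted p = 0.0492) and limma on log2(FPKM + 1) (limma adjusted p = 0.0295). In none of the 6 fits that left out 1 library did it pass (edgeR adjusted p = 0.0659 to 0.338). FAS (ENSG00000026103), the receptor of FAS ligand, had 10.6, 10.5 and 11.8 CPM at 100 µM, against 10.95, 11.4 and 11.2 CPM at 0 µM. The groups overlapped, and the log2 change was -0.03 with a 95% interval of -0.20 to 0.15 (edgeR adjusted p = 0.853).

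SESN1 and RRM2B, which serve metabolism and DNA synthesis, did not pass either. SESN1, a sestrin that restrains the growth kinase mTORC1, had 19.1, 18.6 and 18.3 CPM at 100 µM, against 20.4, 18.01 and 18.9 CPM at 0 µM, with overlap and a log2 change of -0.03 (95% interval -0.19 to 0.12; edgeR adjusted p = 0.777). RRM2B encodes p53R2, the small subunit of ribonucleotide reductase that supplies deoxynucleotides outside S phase. It had 23.3, 22.8 and 23.5 CPM at 100 µM, against 23.8, 23.3 and 22.7 CPM at 0 µM. These groups overlapped as well, and the log2 change was -0.00, with a 95% interval of -0.13 to 0.12 (edgeR adjusted p = 0.965). The 95% intervals of the 5 genes that did not pass reached from -0.20 at the lowest (FAS) to 0.19 at the highest (TNFRSF10B).

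MDM2 and ZMAT3 were lower at 100 µM. MDM2 (ENSG00000135679, chromosome 12, 68808176 to 68850686, plus strand), the ubiquitin ligase of the feedback loop, had 48.3, 48.8 and 50.4 CPM at 100 µM, against 54.1, 53.4 and 57.8 CPM at 0 µM. The treated libraries lay below the untreated ones, as in 19.9% of all genes, but within the range of the other doses, so that all 21 libraries ran from 46.6 to 57.8 CPM. The log2 change was -0.16 ± 0.05 (SE; edgeR adjusted p = 0.0206). It was -0.05 when the 12 low-dose libraries (0.001 to 1 µM) took the place of 0 µM (edgeR adjusted p = 0.431). The MDM2 call was lost without control replicate 3 (-0.13, edgeR adjusted p = 0.139), without 100 µM replicate 1 or replicate 2 (edgeR adjusted p = 0.0608 and 0.0543) and against control replicate 1 alone (-0.14, edgeR adjusted p = 0.264). Limma on log2(FPKM + 1) also did not pass it (-0.12, limma adjusted p = 0.0606).

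ZMAT3 (ENSG00000172667, chromosome 3, 179017223 to 179072279, minus strand), a zinc finger protein that binds RNA and regulates splicing, had 132, 134 and 132 CPM at 100 µM, against 142, 149 and 145 CPM at 0 µM. The treated libraries lay below the untreated ones, as in 19.9% of all genes, and the log2 change was -0.13 ± 0.04 (SE; edgeR adjusted p = 0.0176). Relative to the 12 low-dose libraries it was -0.14 (edgeR adjusted p = 0.00101). The call was lost without control replicate 2 (-0.12, edgeR adjusted p = 0.0575), with no filter on low counts (-0.11, edgeR adjusted p = 0.0826) and against control replicate 1 alone (-0.10, edgeR adjusted p = 0.31).

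**Figure D2:**
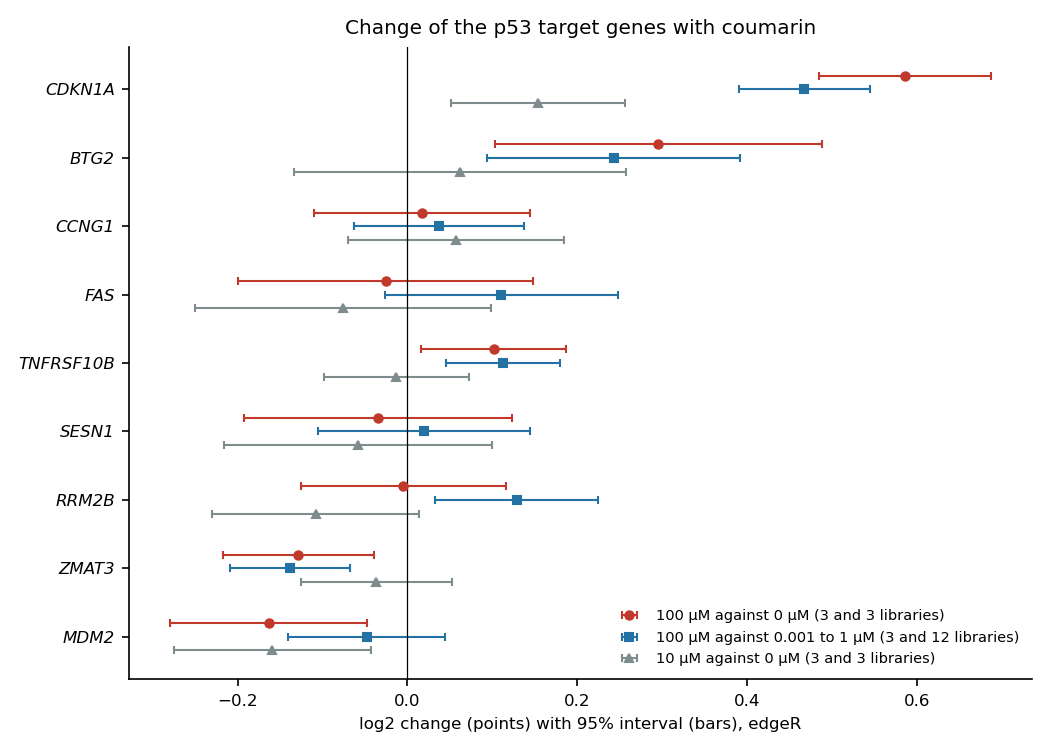
Log2 change (points) with its 95% interval (bars) for the 9 genes at 100 µM against 0 µM, at 100 µM against the 12 libraries of 0.001 to 1 µM, and at 10 µM against 0 µM. CDKN1A stands at 0.59 and 0.47 in the first pair of comparisons, while MDM2 is at -0.16 against 0 µM and at -0.05 against the low doses.

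Since the 2 untreated libraries that stood apart enter every comparison with 0 µM, the 100 µM libraries were also set against those of 0.001 to 1 µM. In that comparison 33.1% of all genes passed, 16.6% up and 16.5% down, and of the 9 target genes 4 rose and 1 fell. CDKN1A averaged 89.3 CPM at 100 µM and 64.6 ± 2.56 CPM (SD, n = 12) in the low-dose libraries, a log2 change of 0.47 (edgeR adjusted p = 1.35e-13). BTG2 rose by 0.24 (edgeR adjusted p = 0.00557), TNFRSF10B by 0.11 (edgeR adjusted p = 0.00421) and RRM2B by 0.13 (edgeR adjusted p = 0.0227), and ZMAT3 was the gene that fell. RRM2B thus passed in this comparison and not against 0 µM, where its level was 23.3 CPM on average, above the 21.2 ± 1.01 CPM of the low-dose libraries. The 0 µM libraries are not part of this comparison, while the 100 µM libraries are shared with the one before.

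Below 100 µM few of the genes moved. All comparisons with 0 µM share its 3 libraries. None of the 9 passed at 0.001, 0.1, 1 or 10 µM against 0 µM by edgeR, DESeq2 or limma, where 1.53%, 6.45%, 2.01% and 2.62% of all genes did by edgeR. With no adjustment, edgeR p was under 0.05 for 1, 4, 1 and 2 of the 9 genes at these 4 doses in turn. That threshold is looser, and the shares of all genes just given do not apply to it. At 0.1 µM an unadjusted edgeR p of 0.0374 (CDKN1A) ranked 2953 among all 16699 genes. At 0.01 µM, where 5.86% of all genes passed, 4.77% up and 1.09% down, CDKN1A rose by 0.17 (edgeR adjusted p = 0.0291) and RRM2B fell by 0.18 (edgeR adjusted p = 0.0467). The CDKN1A values there were 65.8, 66.4 and 68.0 CPM, all above the 3 untreated libraries as in 13.6% of all genes. Those of RRM2B were 20.1, 20.7 and 20.7 CPM, all below them as in 10.3% of all genes. Neither passed against control replicate 1 alone (edgeR adjusted p = 0.385 for CDKN1A and 0.22 for RRM2B). Leaving out 1 of the 6 libraries ended the RRM2B call whichever it was (edgeR adjusted p = 0.088 to 0.124), and the CDKN1A call for each but control replicate 1 (edgeR adjusted p = 0.0599 to 0.124). At 0.1 µM, CDKN1A, with a log2 change of 0.10, had not passed (edgeR adjusted p = 0.212).

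Most of the rise of CDKN1A lay between the 2 highest doses. It had 91.2, 88.6 and 88.1 CPM at 100 µM, against 63.2, 63.9 and 70.8 CPM at 10 µM, without overlap as in 16% of all genes that lay above. This was a log2 change of 0.43 ± 0.05 (SE), or 1.35-fold (edgeR adjusted p = 3.07e-09). At 10 µM against 0 µM its log2 change was 0.15 (edgeR adjusted p = 0.074). In the comparison of 100 with 10 µM, 18.3% of all genes passed, 8.22% up and 10% down, and of the 9 genes CDKN1A and TNFRSF10B rose. TNFRSF10B had 129, 129.9 and 137 CPM at 100 µM, against 121, 126 and 118 CPM at 10 µM, a log2 change of 0.11 (edgeR adjusted p = 0.0385). That call was lost without 10 µM replicate 1 or replicate 3 or 100 µM replicate 3 (edgeR adjusted p = 0.0967, 0.145 and 0.237), with no filter (edgeR adjusted p = 0.112) and with only the 2 doses in the fit (edgeR adjusted p = 0.0781). BTG2 had a log2 change of 0.23 between these doses (edgeR adjusted p = 0.0613).

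Over the 18 treated libraries a slope on log10 dose gave the change of log2 level per unit of log10 dose. It passed for 21.5% of all genes, 10% up and 11.5% down, and for 3 of the 9. CDKN1A had 0.07 per unit (edgeR adjusted p = 0.00924), RRM2B 0.03 (edgeR adjusted p = 0.0337) and ZMAT3 -0.03 (edgeR adjusted p = 0.00256). Without the 100 µM libraries none of the 9 slopes passed, where 432 of all genes did in place of 3555. The CDKN1A slope was then 0.01 (edgeR adjusted p = 0.766), while RRM2B had 0.02 and ZMAT3 -0.02 (edgeR adjusted p = 0.42 and 0.236). The RRM2B slope was lost without any 1 of the 3 libraries at 100 µM (edgeR adjusted p = 0.055 to 0.0862). A test for any difference among the 7 doses was passed by 30% of all genes and by CDKN1A (edgeR adjusted p = 5.63e-12), ZMAT3 (edgeR adjusted p = 0.0227) and RRM2B (edgeR adjusted p = 0.0365). Without 100 µM replicate 3 only 1 of the 9 genes passed it. Over the fits that left out 1 library, 3710 to 5608 of all genes passed that test, in place of 5008.

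**Figure D3:**
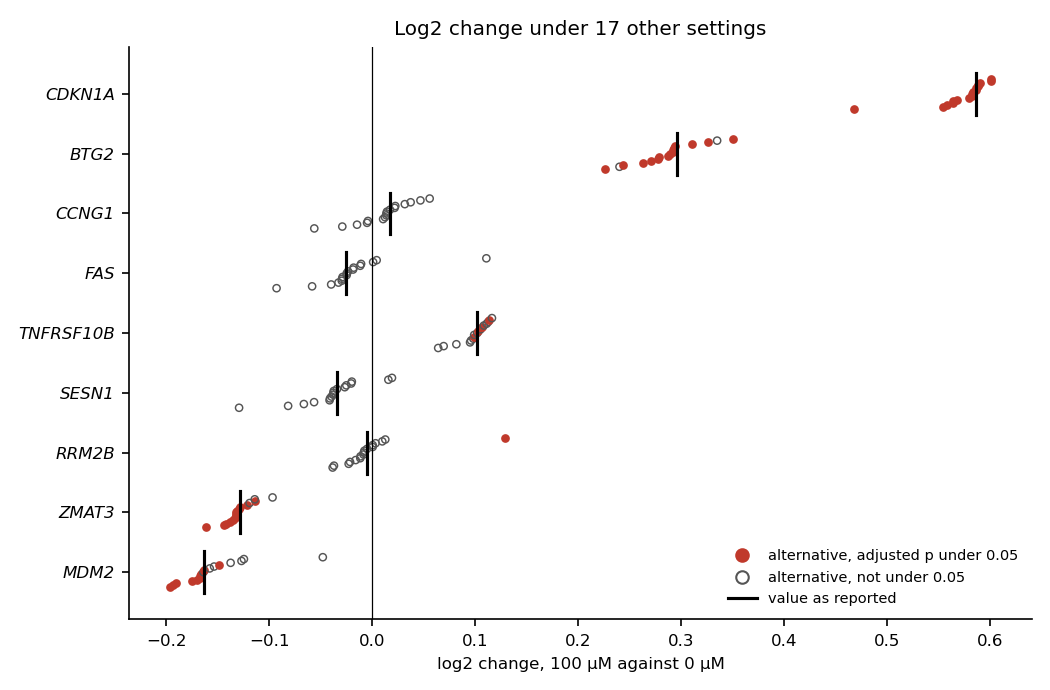
Log2 change at 100 µM against 0 µM for the 9 genes as reported (bars) and in 17 other settings of scaling, filtering, model, baseline and left-out libraries (points, filled where the adjusted p is under 0.05). Filled points of CDKN1A run from 0.47 to 0.60, while those of BTG2, ZMAT3 and MDM2 lie among open ones.

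Genes whose levels followed those of CDKN1A most closely over the 21 libraries were sought by the root mean square difference of centred log2 CPM, among 11471 protein-coding genes of at least 1 CPM. They were SLC3A2, an amino acid transporter subunit gene (0.0353), KCTD15 (0.0509) and SHMT2, a mitochondrial serine hydroxymethyltransferase gene (0.0595), where CDKN1A itself varied by 0.181. At 100 µM these 3 rose by 0.58, 0.48 and 0.53, a rise largely set by choosing them over these same libraries. For ZMAT3 the closest were the cyclin-dependent kinase gene CDK6 (0.0278), IVNS1ABP (0.0340) and WDR26 (0.0366), and for MDM2 they were CASP8AP2 (0.0586), GMCL1 (0.0586) and TMEM41B (0.0587). MDM2 itself varied by 0.0795, little more than its distance to them. The 21 libraries enter as points that share dose groups and scaling, and the values are a description.

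Relatives and regulators of p53 passed at 100 µM about as often as all genes. Of 17 listed genes 15 were tested, 3 rose and 1 fell, 26.7% against 27.3% of all genes, with a median log2 change of 0.07. The ribosomal proteins RPL11 and RPL5, which bind MDM2 when ribosome assembly is disturbed, rose by 0.29 and 0.16 (edgeR adjusted p = 5.78e-06 and 0.00225), and the RPL5 call was lost against control replicate 1 alone (edgeR adjusted p = 0.309). EP300, an acetyltransferase that acts with p53, rose by 0.21 (edgeR adjusted p = 0.00956), but its log2 change was -0.08 against the 12 low-dose libraries, and the call was lost without control replicate 1 or 3 or 100 µM replicate 1 (edgeR adjusted p = 0.0745, 0.0648 and 0.0605). ATM, the kinase of the double-strand break response, fell by 0.18 (edgeR adjusted p = 0.0166) and did not pass in 7 of the 17 other settings. It was at -0.02 against control replicate 1 alone and at -0.02 against the low doses, and leaving out control replicate 2, control replicate 3 or 100 µM replicate 1 also ended its call (edgeR adjusted p = 0.0977, 0.106 and 0.0832). CDKN2A, which encodes the MDM2 inhibitor p14ARF along with p16, was abundant, with 465.5 ± 27.02 CPM at 100 µM and 411 ± 20.4 CPM at 0 µM (SD, n = 3 each; edgeR adjusted p = 0.168). The p53 relatives TP63 and TP73 had at most 6 and 7 counts in any library and were not tested.

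Other cell cycle targets of p53 changed in both directions at 100 µM. All 8 were tested, 2 rose and 5 fell, where 14.4% of all genes rose and 12.9% fell, and the median log2 change was -0.16. GADD45A, a stress-induced regulator of growth arrest, averaged 33.7 ± 2.31 CPM at 100 µM and 26.2 ± 2.35 CPM at 0 µM, a rise of 0.36 (edgeR adjusted p = 1.05e-05). E2F7, a transcriptional repressor, rose by 0.18 (edgeR adjusted p = 0.00693). PLK2, a polo-like kinase, averaged 40.0 ± 2.20 CPM at 100 µM and 59.3 ± 3.29 CPM at 0 µM and fell by 0.57 (edgeR adjusted p = 5.15e-11), close in size to the rise of CDKN1A. PRDM1, a transcriptional repressor, fell by 0.45 (edgeR adjusted p = 5.22e-08). SFN, which encodes 14-3-3 sigma, fell by 0.22 (edgeR adjusted p = 0.0166), a call lost without control replicate 1 (-0.15, edgeR adjusted p = 0.0967) or 100 µM replicate 2 (-0.21, edgeR adjusted p = 0.0506). BTG1, a paralog of BTG2, fell by 0.17 (edgeR adjusted p = 0.0417), a call lost in 10 of the 17 other settings. It was at -0.05 against the low doses (edgeR adjusted p = 0.445), and leaving out any 1 control or 100 µM replicate 1 ended its call (edgeR adjusted p = 0.0525 to 0.25). TRAF4, named after its values were seen, fell by 0.14 (edgeR adjusted p = 0.0163), but was at -0.08 against the low doses (edgeR adjusted p = 0.094) and did not pass without control replicate 1 or 3 or 100 µM replicate 2 (edgeR adjusted p = 0.0858, 0.0515 and 0.0597). The E2F7 call was lost against control replicate 1 alone (edgeR adjusted p = 0.123), while those of GADD45A, PLK2 and PRDM1 were kept in all 17 settings.

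The cell death targets of p53 that moved at 100 µM all rose: 5 of 11 tested, of 13 listed, where 14.4% of all genes rose, with none down and a median log2 change of 0.11. PMAIP1, which encodes the BH3-only protein NOXA, averaged 24.9 ± 1.18 CPM at 100 µM and 14.2 ± 0.721 CPM at 0 µM, a rise of 0.82 (edgeR adjusted p = 3.18e-11). BBC3, the gene of the BH3-only protein PUMA, rose by 0.38 (edgeR adjusted p = 0.000405), a call lost against control replicate 1 alone (edgeR adjusted p = 0.0872). AEN, an apoptosis-enhancing nuclease gene, rose by 0.30 (edgeR adjusted p = 3.16e-06), and TNFRSF10D, a TRAIL decoy receptor gene, by 0.22 (edgeR adjusted p = 0.00281). The fifth, TNFRSF10A, a TRAIL receptor gene named after its values were seen, rose by 0.21 (edgeR adjusted p = 0.0107), but not against control replicate 1 alone (edgeR adjusted p = 0.11), without control replicate 3 (edgeR adjusted p = 0.0661) or without 100 µM replicate 1 (edgeR adjusted p = 0.0884). BAX, the pore-forming effector, had 107 ± 5.12 CPM at 100 µM and 108 ± 8.34 CPM at 0 µM (log2 change -0.01, edgeR adjusted p = 0.924).

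Signalling partners of the death receptors passed at a share near that of all genes. Of 7 tested, of 8 listed, 2 fell and none rose, 28.6% against 27.3% of all genes. TNFSF10, the TRAIL ligand, had 10 to 16 counts per library at 100 µM and 29 to 33 at 0 µM, with a log2 change of -1.25 (edgeR adjusted p = 0.000926). CFLAR, an inhibitor of caspase 8 activation, fell by 0.18 (edgeR adjusted p = 0.0135), a call lost in 6 of the 17 other settings, among them those without control replicate 3 or 100 µM replicate 3 (edgeR adjusted p = 0.125 and 0.102). The ligand of FAS, FASLG, was at 0 counts in all 21 libraries.

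Metabolic targets were led by a paralog of SESN1. SESN2, the stress-inducible sestrin, averaged 31.8 ± 1.14 CPM at 100 µM and 13.4 ± 0.524 CPM at 0 µM, a rise of 1.25 on the log2 scale (edgeR adjusted p = 3.75e-17), whereas SESN1 did not pass. In the metabolic list of 12 symbols, 11 rows were tested, 1 rose and 1 fell, 18.2% against 27.3% of all genes. DRAM1, a lysosomal regulator of autophagy, fell by 0.29 (edgeR adjusted p = 8.76e-06). Of 7 DNA repair and related targets 1 rose and none fell, 14.3% against 27.3% of all genes. The 1 that rose was RPS27L, a ribosomal protein paralog, by 0.30 (edgeR adjusted p = 7.36e-06). The nucleotide excision repair genes DDB2 and XPC were at -0.11 each (edgeR adjusted p = 0.11 and 0.137). DDB2 passed as lower in 4 of the 17 other settings and XPC in 2, among them upper-quartile scaling (edgeR adjusted p = 0.0317 and 0.046) and the comparison with the low doses (edgeR adjusted p = 0.0165 and 0.00559). DDB2 also passed against control replicate 1 alone (-0.20, edgeR adjusted p = 0.0327) and without control replicate 2 (-0.19, edgeR adjusted p = 0.00583).

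Secreted and surface targets also passed at a share near that of all genes. Of 13 tested, of 16 listed, 1 rose and 3 fell, 30.8% against 27.3% of all genes, with a median log2 change of 0.04. GDF15, a stress cytokine, averaged 64.2 ± 1.53 CPM at 100 µM and 38.7 ± 2.75 CPM at 0 µM, a rise of 0.73 (edgeR adjusted p = 1.98e-11). KITLG, the ligand of the receptor KIT, fell by 0.43 (edgeR adjusted p = 1.85e-09), the ephrin receptor gene EPHA2 by 0.38 (edgeR adjusted p = 2.4e-06) and THBS1, which encodes the matrix protein thrombospondin, by 0.33 (edgeR adjusted p = 4.36e-05). Of 4 epithelial markers tested, 2 fell and none rose, 50% against 27.3% of all genes. Of 4 mesenchymal markers tested, 2 fell and none rose as well. The 2 epithelial markers that fell were the keratin genes KRT8 and KRT18, at -0.43 and -0.58 (edgeR adjusted p = 4.88e-11 and 3.22e-13), and their part in these results was not tested.

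Over these lists of regulators and other targets 65 genes were tested, 13 rose and 10 fell at 100 µM, 35.4% of them against 27.3% of all genes, with a median log2 change of 0.03. At 10 µM none of the 65 passed by edgeR, where 2.62% of all genes did. Before adjustment, edgeR p was under 0.05 for 14 of the 65, a looser threshold to which that share does not apply. Among all 16699 genes at this dose, an unadjusted edgeR p of 0.00544 (MDM2) ranked 826 and one of 0.065 (RRM2B) ranked 3061. At 0.001, 0.01, 0.1 and 1 µM, 2, 4, 7 and 3 of the 65 passed after adjustment. These were 3.08%, 6.15%, 10.8% and 4.62% of the 65, where 1.53%, 5.86%, 6.45% and 2.01% of all genes passed.

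**Figure D4:**
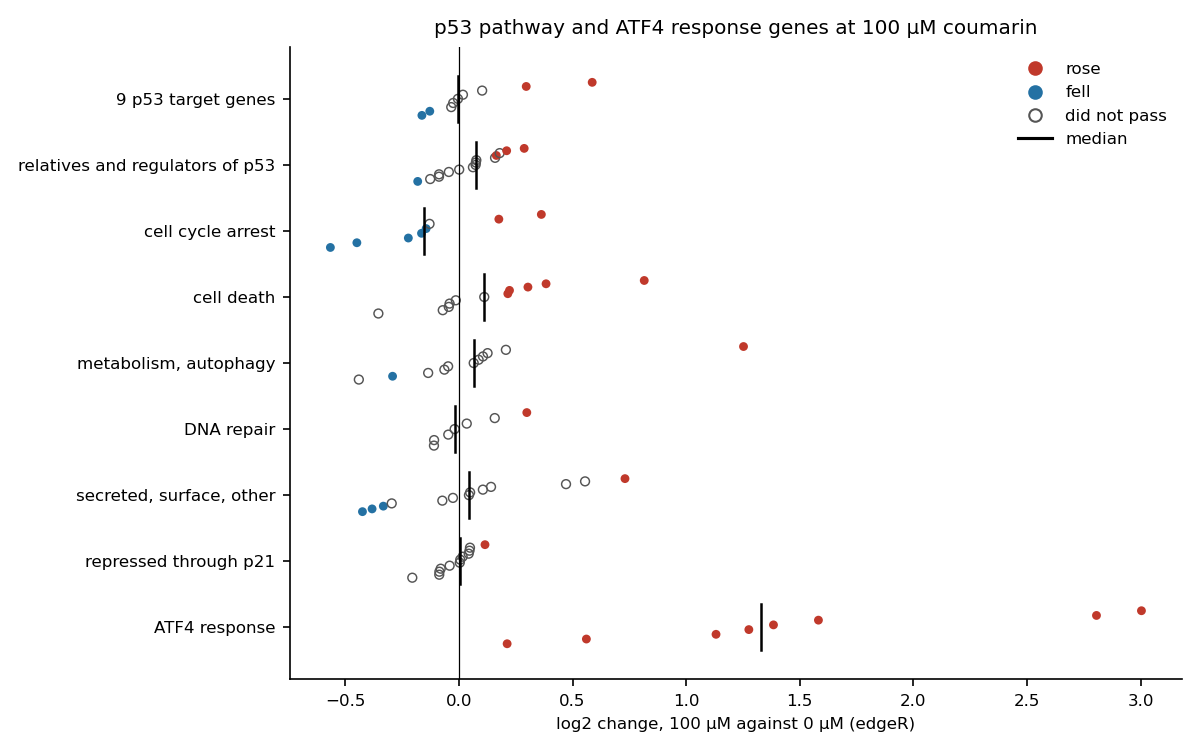
Log2 change at 100 µM against 0 µM (horizontal axis) of the tested genes of each list (rows), coloured by whether they rose, fell or did not pass, with the median of each list as a black bar. The medians of the p53 lists lie between -0.16 and 0.11, and that of the ATF4 response list at 1.33.

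Of 12 genes that p21 is known to shut off through the DREAM complex and RB, none passed as lower at 100 µM against 0 µM by edgeR with the settings used throughout. By the same test 12.9% of all genes fell and 14.4% rose, so a list of 12 can say little here. The nearest of the 12 were CDC25C, BUB1 and CCNA2, with log2 changes of -0.21, -0.09 and -0.09 (edgeR adjusted p = 0.0514, 0.13 and 0.141). CDC25C did pass as lower in 7 of the 17 other settings, among them RLE scaling (edgeR adjusted p = 0.0471) and the fits without control replicate 2 or 100 µM replicate 3 (edgeR adjusted p = 0.0363 and 0.0498). With upper-quartile scaling all 3 passed (edgeR adjusted p = 0.0245, 0.0345 and 0.0338), as they did against the 12 low-dose libraries (edgeR adjusted p = 0.00209, 0.00126 and 0.0235). The 1 gene that passed was MYBL2, a cell cycle transcription factor, which rose by 0.11 (edgeR adjusted p = 0.0401), a call lost in 10 of the 17 other settings, among them the fits that left out control replicate 2 or 3 or any 1 library of 100 µM. The median log2 change was 0.00. Relative to 10 µM, 5 of the 12 fell at 100 µM and none rose, where 10% of all genes fell and 8.22% rose. They were the mitotic cyclin genes CCNB1 (-0.21) and CCNA2 (-0.18), the phosphatase gene CDC25C (-0.38), the checkpoint kinase gene BUB1 (-0.22) and, named after its values were seen, PLK1 (-0.16). The PLK1 call was lost without 10 µM replicate 3 (-0.11, edgeR adjusted p = 0.113) or 100 µM replicate 2 (-0.15, edgeR adjusted p = 0.0536). At 10 µM against 0 µM the median of the list was 0.09, and 1 gene rose, where 2.62% of all genes passed in either direction.

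Genes through whose products p21 acts changed in both directions at 100 µM. Of 11 tested, 2 rose and 4 fell, where 14.4% of all genes rose and 12.9% fell. The cyclin gene CCNE1 rose by 0.94 (edgeR adjusted p = 2.11e-05) at a low level, 3.60 ± 0.423 CPM at 100 µM and 1.89 ± 0.421 CPM at 0 µM. CDK4, the kinase that pairs with D-type cyclins, rose by 0.20 (edgeR adjusted p = 0.000597), a call lost against control replicate 1 alone (edgeR adjusted p = 0.146). CCND3 fell by 0.24 (edgeR adjusted p = 8.37e-05), RBL2, which encodes the pocket protein p130, by 0.25 (edgeR adjusted p = 0.000187), CDK6 by 0.12 (edgeR adjusted p = 0.0353) and RB1, named after its values were seen, by 0.25 (edgeR adjusted p = 0.000623). The CDK6 call ended when control replicate 2 or 3, or replicate 1 or 3 of 100 µM, was left out (edgeR adjusted p = 0.132, 0.0612, 0.0778 and 0.096). PCNA, the replication clamp bound by p21, was at -0.03 (edgeR adjusted p = 0.578). The other inhibitors of the p21 family did not pass: CDKN1B was at 0.04 and CDKN1C at 0.00 (edgeR adjusted p = 0.551 and 0.992).

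Marker genes of the integrated stress response factor ATF4 rose at 100 µM, where CDKN1A rose too. All 8 of 8 listed rose there, where 14.4% of all genes rose, with a median log2 change of 1.33. At 10 µM against 0 µM, 2 of the 8 rose, and at 0.001, 0.1 and 1 µM 1 fell at each dose. At these 4 doses in turn 2.62%, 1.53%, 6.45% and 2.01% of all genes passed. Their summed level was 1608.9 to 1609.7 CPM at 100 µM and 893 to 932 CPM at 0 µM. CHAC1, a glutathione-degrading enzyme gene, rose by 3.00 and ASNS, asparagine synthetase, by 2.81 (edgeR adjusted p = 9.34e-22 and 2.92e-18). ATF4 itself averaged 573 ± 4.35 CPM at 100 µM and 388 ± 10.9 CPM at 0 µM (edgeR adjusted p = 1.5e-14). SESN2 and PMAIP1 are known to respond to ATF4 as well as to p53. The part of this response in the changes of CDKN1A and the other p53 targets was not tested.

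Some of the genes overlap others on the genome, and the strand setting of the counting is not given in the sources used here. TNFRSF10B shares 67 bases of its span with RHOBTB2 (36.9 CPM). FAS overlaps ACTA2 (3.17 CPM) by 758 bases, and MDM2 overlaps the carboxypeptidase M gene (1.47 CPM) by 8490. The antisense partner of CDKN1A, DINOL, averaged 0.0339 CPM. Reads from such overlaps cannot be assigned with certainty.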

How the data were processed

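The deposited table gives, for each gene and each of 21 libraries, the authors' read counts and their FPKM values (fragments per kilobase of gene length, relative to depth), and it pairs Ensembl gene IDs with symbols and GRCh38 coordinates. The submitters' processing notes name HISAT2, DESeq2 and GRCh38 without versions, and for the counting tool and its strand setting, the sources used here are silent. The deposited counts were tested with edgeR 4.0.16 in R 4.3.3. Genes were kept by filterByExpr, libraries were scaled by TMM, and 1 quasi-likelihood fit over the 7 dose groups (14 residual degrees of freedom) gave each contrast, with Benjamini-Hochberg adjustment over 16699 genes and a threshold of 0.05. The 18 treated libraries also gave a slope on log10 dose (16522 genes, 16 residual degrees of freedom). CPM are counts per 1000000 of the TMM-scaled library total, 95% intervals use the t distribution on the residual degrees of freedom, and FPKM were used for levels and, with limma 3.58.1, as log2(FPKM + 1) and log2(FPKM + 0.1) for an alternative test. DESeq2 1.42.0, upper-quartile and RLE scaling, other filters, fits to the groups compared, control replicate 1 alone, the doses of 0.001 to 1 µM as baseline, a replicate term, dose ranks and leaving out each replicate in turn were further alternatives. The scripts were tested on simulated data.

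Counts of 26984563 to 43375429 per library leave a common biological coefficient of variation of 4.49%, and a count of 3 was taken as the floor. Replicates are called biological by the submitters, and nothing further says whether they came from separate cultures, so p-values measure the spread between these libraries. No 2 libraries held equal values: the closest pair differed in 24265 genes. The same replicate number did not pair libraries (correlations of their deviations from the group means of -0.139 to 0.127, median 0.00, over 63 pairs). The 9 genes and all lists were chosen with earlier results of these data known. The 9 genes are reported whatever their values, and a few other genes are not reported here and were left out of the lists. Of every other list up to 4 tested genes with the smallest p at 100 µM and up to 2 of the highest mean CPM may be named, and exceptions are said to have been named after their values were seen.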

Additional observations from a re-analysis of the deposited data

How the results depend on the processing

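At 100 µM against 0 µM, 4 of the 9 genes passed. The count was 3 to 4 without 1 library, 3 to 5 in 10 other settings, and 1 (CDKN1A) against control replicate 1 alone. That test has 1 untreated library, whose spread is taken from the other groups. At 0.01 µM, where 2 passed, the count was 1 with upper-quartile scaling, with no filter, with a replicate block and with only the groups compared, 0 against control replicate 1 alone, and 0 to 1 without 1 library. At 0.1 µM, where 0 passed, it was 1 with upper-quartile scaling and 0 to 1 without 1 library, and at 10 µM, where 0 passed, it was 1 with no filter. At 100 against 10 µM, where 2 passed, it was 1 with no filter and with only the groups compared, and 1 to 3 without 1 library. For any difference among doses, where 3 passed, it was 1 to 4 without 1 library. Of the 3 slopes, 0 passed without 100 µM, where 432 of all genes did. The cause of these differences was not tested.

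Changes near zero turned round in some settings. CCNG1 was at -0.015 with upper-quartile scaling, at -0.056 against control replicate 1 alone and at -0.029 to 0.056 without 1 library. RRM2B was at 0.0096 with no filter, at 0.13 against the low doses, at 0.00024 and 0.00032 by limma on log2(FPKM + 1) and log2(FPKM + 0.1), and at -0.023 to 0.013 without 1 library. FAS was at 0.0041 against control replicate 1 alone, at 0.11 against the low doses and at -0.093 to 0.00073 without 1 library. SESN1 was at 0.019 against the low doses and at -0.082 to 0.015 without 1 library, and EP300 at -0.085 against the low doses.

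The replicate block left 4 of the 9 genes called at 100 µM and 4446 of all genes in place of 4558. With upper-quartile scaling 41.4% of called genes were higher at 100 µM, in place of 52.9%, and the median of all genes was -0.04. Over all genes, 2222 passed at 100 µM against control replicate 1 alone. In place of 3555 slopes, 432 passed without 100 µM. Of 43 other genes with the smallest p in their lists, 33 passed at 100 µM, and 22 of these did so in all 17 other settings. These genes were chosen by p in that same comparison, so the counts cannot be set against the share of all genes. Precision is limited by 3 libraries a group. Pooled spreads of 7.19% for BTG2, 6.85% for SESN1, 6.22% for CCNG1 and 5.96% for FAS may leave small changes undetected at this depth. BTG2 did pass at 100 µM, with a log2 change of 0.30.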
